A study of Homo sapiens with 22 samples.

Results

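The mitochondrial ribosomal protein genes were taken as every gene name in both count tables made of MRPL or MRPS, a number and, where present, a letter from A to C. The rule found 78 members among 59087 names, 49 with MRPL names (large subunit) and 29 with MRPS names (small subunit). The cells were HUDEP-2, an immortalized line of human erythroid progenitors. At D0 they were in growth medium with doxycycline, erythropoietin, SCF and dexamethasone. At D6 they were in a maturation medium of another base with doxycycline, erythropoietin and more SCF. It also held plasma, heparin, holo-transferrin and insulin, and no dexamethasone is listed for it. Day and medium therefore cannot be told apart. Each day had 2 WT and 3 KO cultures in the H2A.X experiment and 3 WT and 3 KO cultures in the BAZ1B experiment, which makes 22 libraries. KO lines were subclones, grown from about 1 cell per well after delivery of Cas9 and paired guides by lentivirus and selected for homozygous deletions. The study names WT subclones too for the H2A.X RNA-Seq, and states that its WT subclones were handled like the KO lines. Guides lay upstream of the start codon and downstream of the stop codon of H2A.X, a variant histone, or downstream of the first exon of BAZ1B, a kinase for this histone. The labels do not state which subclone a library came from, so p-values measure the spread between cultures of a group. Columns carry the same numbers at both days, and the main fits did not pair the days by them.

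Mitochondria carry ribosomes of their own, which make the few proteins that mitochondrial DNA encodes, all of them subunits of the respiratory chain and of ATP synthase. The ribosomal RNAs come from mitochondrial DNA, while every ribosomal protein is encoded in the nucleus, made in the cytoplasm and imported. The large subunit joins amino acids and holds the exit tunnel, and the small subunit reads the message. Erythroid cells use mitochondria for heme synthesis and lose them at the end of maturation. By structure, MRPS18A and MRPS30 belong to the large subunit despite their names, and MRPS36 is a subunit of the 2-oxoglutarate dehydrogenase complex. Of the 78 members, 44 carry numbers given for a bacterial counterpart and 34 carry numbers given to proteins first found in mitochondria.

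The genes were spread over 21 chromosomes of GRCh38. Promoter sequences, from 250 bases before to 50 after the RefSeq start (GRCh38.p14), were at hand for 69 members. The letters CCGGAAG, which ETS factors such as GABPA bind, stood on either strand in 29 of the 69 (42%). They stood in 10.3% of all 35116 promoters of this length and in 21% of the 9411 promoters of genes tested in both experiments. ATGGCGG, the letters of YY1, stood in 24 of 69 (34.8%), against 5.55% of all promoters and 11.2% of those of tested genes. Of 25 ATGGCGG matches, 20 began after the start, 19 of them on the strand of the gene. Of 39 CCGGAAG matches, 27 began within 100 bases before the start. Either sequence was found in 46 members and both in 7. The other letters searched were nearer the shares of tested genes. GGGCGGG (Sp factors) was in 34 members (49.3%, against 33.1% of all and 54.8% of tested genes), GCATGCG (NRF1) in 7 (10.1%, against 3.91% and 7.07%) and CACGTG (E-box) in 6 (8.70%, against 7.26% and 10.9%). In the 100 bases around the start, 50 to each side, CCGGAAG was in 24 members (34.8%, against 5.59% and 12.5%) and ATGGCGG in 21 (30.4%, against 3.19% and 7.79%). Matches of different letters overlapped in 0 cases. These are descriptions of letters in a window, not of binding.

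The 4 promoters shown here belong to members with large differences between the days in the cultures of the BAZ1B experiment, MRPL16 and MRPS26 lower at D6 and MRPL48 and MRPL54 higher. Each is shown for 160 bases, from 150 before to 10 after the RefSeq start, 5′ to 3′ on the strand of the gene. Capitals mark CCGGAAG, which in all 4 lay on the opposite strand and is therefore read as CTTCCGG. They are MRPL16 (chr11:59810769-59810928, minus strand), MRPL48 (chr11:73787724-73787883, plus strand), MRPL54 (chr19:3762532-3762691, plus strand) and MRPS26 (chr20:3045902-3046061, plus strand). The match began 6 bases before the start in MRPL16, 63 in MRPL48, 21 in MRPL54 and 37 in MRPS26. These 4 were picked for this match after it was seen. Of the other members with large differences in that comparison, MRPL1 had no CCGGAAG in its promoter and MRPL33 had it on its own strand, 8 bases before the start.
MRPL16: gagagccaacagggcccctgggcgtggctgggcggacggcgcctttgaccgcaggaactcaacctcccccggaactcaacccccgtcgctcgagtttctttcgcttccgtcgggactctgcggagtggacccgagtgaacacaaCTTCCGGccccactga
MRPL48: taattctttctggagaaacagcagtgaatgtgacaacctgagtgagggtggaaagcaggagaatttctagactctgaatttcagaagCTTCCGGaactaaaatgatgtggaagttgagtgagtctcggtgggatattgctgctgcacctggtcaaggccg
MRPL54: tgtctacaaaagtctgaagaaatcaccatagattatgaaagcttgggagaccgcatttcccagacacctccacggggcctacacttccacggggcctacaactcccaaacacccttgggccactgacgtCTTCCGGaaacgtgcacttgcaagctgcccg
MRPS26: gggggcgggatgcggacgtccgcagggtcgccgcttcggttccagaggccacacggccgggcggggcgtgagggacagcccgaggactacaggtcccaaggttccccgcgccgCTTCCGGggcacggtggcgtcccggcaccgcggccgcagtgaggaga

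A start of another gene lay on the opposite strand within 1000 bases upstream of 26 of the 69 members (37.7%), against 17.9% of all 35116 promoters. Without names of uncharacterized, antisense, divergent-transcript and small RNA genes the background was 20.2% of 24710. These names were left out only of the genes counted and stayed as possible neighbours. The same held for the members, as with DNAJC9-AS1 beside MRPS16. The share among tested genes was not computed, so 37.7% is not read as particular to the members. MRPL46 and MRPS11, a protein of each subunit, were such a pair, 320 bases apart. The start of MRPS12 lay 181 bases from that of SARS2, the mitochondrial seryl-tRNA synthetase, and the start of MRPL49 lay 49 bases from that of FAU, which encodes a cytoplasmic ribosomal protein fused to a ubiquitin-like one.

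Libraries held 11910141 to 21013004 counts in the H2A.X experiment and 33199408 to 41273244 in the BAZ1B experiment. The deleted H2A.X gene, listed as H2AFX, kept 333 to 787 normalized counts (counts brought to 1 effective library size per experiment, and so not comparable between experiments) in KO at D0 against 1575 and 1969 in WT, and 308 to 1050 against 1748 and 2391 at D6. BAZ1B kept 6556 to 8349 against 9703 to 9913 at D0, and 6817 to 7377 against 9104 to 9429 at D6. Reads outside a deletion can still be counted on either gene. Erythroid markers were detected in every library, at 7104 to 64490 CPM (counts scaled to the library total) summed over 14 genes, and markers of lymphocytes reached at most 0.0541. Markers of mast cells, basophils and eosinophils summed to 2.71 to 655 CPM. At D0 this sum was 111 and 131 in H2A.X WT, 233 to 472 in H2A.X KO and 476 to 655 in the BAZ1B experiment. In bulk RNA, fewer cells of a type and less RNA per cell cannot be told apart. The 4 H2A.X WT libraries stood apart from the other 18 in their cytoplasmic ribosomal protein counts, 115798 to 208828 CPM against 77426 to 108820. In the H2A.X table, 5 of 6 KO columns are named with the word Redo (KO D6 replicate 3 is not) and no WT column is, so genotype and mark cannot be told apart at D0.

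Levels between members were compared per length only, as TPM, counts scaled to the length of the longest annotated transcript and to the library total. In BAZ1B WT at D0 the median member had 88.2 TPM. MRPL16, a core protein of the large subunit, was highest with 735 ± 27.9 TPM (SD, n = 3), followed by MRPL37 with 410 ± 9.37 and MRPL51 with 374 ± 5.48, with no overlap between these 3. Over the canonical transcript length, a choice made after seeing the data, MRPL16 with 572, MRPL4 with 381 and MRPL37 with 341 TPM came first, so the order after MRPL16 depends on the transcript taken. At D6 the median was 69.6 TPM, and MRPL37 with 359, MRPL51 with 312 and MRPL3 with 303 came first. In H2A.X WT at D0, MRPL51 was first with 616 ± 161 TPM (SD, n = 2) and MRPL16 second with 480 ± 84.7, which differed by less than the spread of MRPL51. Over the canonical length MRPL20 with 455, MRPL51 with 448 and MRPL16 with 349 TPM came first there. At the other end stood MRPL46 with 1.79 ± 0.0619, MRPS24 with 0.456 ± 0.115 and MRPL53 with 0.0391 TPM in BAZ1B WT at D0.

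The lowest members lie inside other genes. With the GENCODE 44 annotation, 99.2% of the bases of the canonical MRPL53 transcript and 90.9% of those of MRPS24 belong to exons of other genes, and the share is 73.4% for MRPL46. Reads that lie in exons of several genes are commonly left uncounted, and which option was used here is not given. MRPL53 had 0 to 2 reads in every library, and MRPS24 had 0 to 8 in the H2A.X and 4 to 15 in the BAZ1B experiment. Their low values were therefore not read as low expression. Both failed the filter on low counts in the H2A.X experiment, which left 76 members among 13236 tested genes, and MRPL53 failed it in the BAZ1B experiment, which left 77 among 13879. Also over 50% covered were MRPL38, MRPL12, MRPL2, MRPS5, MRPS18A, MRPS18C and MRPS28, while 47 of the 78 members shared no base of this transcript. For MRPS18A and MRPS18C the other gene is on the opposite strand (RSPH9 and ABRAXAS1), and whether reads were counted by strand is not given, so values of these 10 genes are uncertain.

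The members together took 0.726% and 0.903% of all counts in the H2A.X WT libraries at D0 and 0.545%, 0.604% and 0.601% in KO. At D6 the shares were 0.722% and 0.738% in WT and 0.437%, 0.378% and 0.577% in KO. In the BAZ1B experiment WT had 0.566% to 0.579% and KO had 0.547% to 0.577% at D0. At D6 these ranges were 0.470% to 0.498% and 0.481% to 0.508%. All KO libraries of the H2A.X experiment lay below their WT, whereas BAZ1B KO and WT overlapped at both days. The H2A.X KO shares at D0 were close to those of all BAZ1B cultures at D0, and it was the H2A.X WT libraries that were higher than both. Both experiments were counted in separate tables, so this was not tested.

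**Figure D1:**
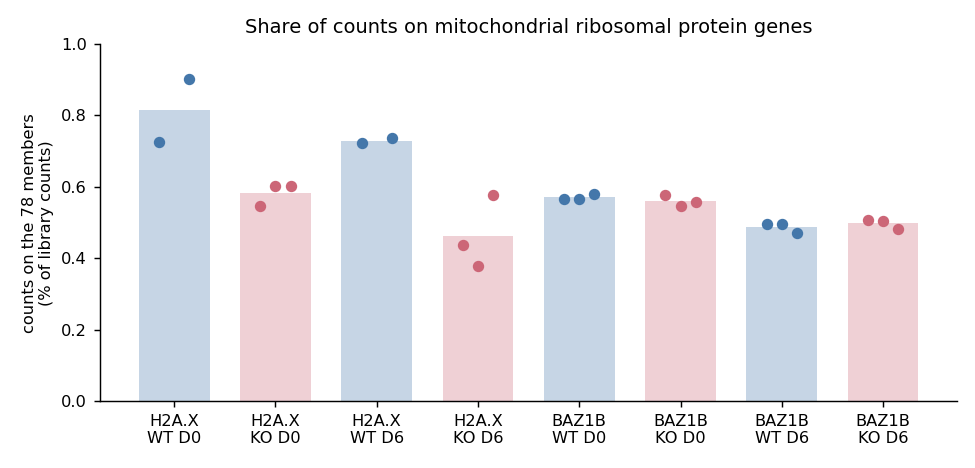
Share of all counts taken by the 78 mitochondrial ribosomal protein genes (percent, y axis) in each group of both experiments. Bars are group means and points are libraries. The H2A.X WT libraries lie between 0.722% and 0.903%, above all others.

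The first comparison asked how loss of H2A.X moved these genes before maturation. At D0, 51 of the 76 tested members were lower in KO and 0 were higher at a Benjamini-Hochberg adjusted p below 0.05 (edgeR's quasi-likelihood test). Over all 13236 genes, 16.7% were lower and 18.4% higher. The log2 fold change was negative for all 76 members, with a median of −0.72, a fold of 0.607, beside 0.01 over all genes. KO and WT libraries did not overlap for 65 of 76 members (85.5%), where 70.3% of all genes did not overlap. By name, 36 of 48 MRPL and 15 of 28 MRPS members were lower. In the same comparison 10 of 14 erythroid markers were lower, with a sum of 26194 and 31483 CPM in WT and 13864 to 18260 in KO, and 3 of 5 tested markers of mast cells, basophils and eosinophils were higher, and their part in the values of the members was not tested.

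The largest falls at D0 were in MRPL54, MRPL12 and MRPL23. MRPL54, a large subunit protein with no bacterial counterpart, had 1171 and 2254 normalized counts in WT and 525, 578 and 590 in KO (log2 fold change −1.60, SE 0.28, adjusted p = 0.00605 by edgeR). MRPL12, a protein of the stalk that contacts translation factors, had 726 and 1350 in WT and 282, 375 and 396 in KO (log2 fold change −1.56, SE 0.31, adjusted p = 0.00807 by edgeR). MRPL23, which lies at the tunnel exit, had 274 and 561 in WT and 134, 167 and 156 in KO (log2 fold change −1.45, SE 0.32, adjusted p = 0.0107 by edgeR). In all 3 genes the KO libraries lay close together and below both WT libraries, and WT replicate 2 was the highest by a wide margin.

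At D6, 57 of 76 members were lower in KO and 0 were higher by the same test, against 20.9% lower and 22.2% higher of all genes. Of the 76, 74 had a negative log2 fold change and the median was −0.85, a fold of 0.556. Libraries did not overlap for 68 of 76 members (89.5%), against 63.3% of all genes. MRPL names were lower in 35 of 48 cases and MRPS names in 22 of 28. At both days 47 of the 76 members were lower (10.9% of all genes were) and at neither day 15 (73.3% of all genes), among them MRPL3, MRPL10, MRPL19, MRPL45, MRPS22, MRPS27, MRPS31 and MRPS35. Here 2 of 5 mast cell, basophil and eosinophil markers were lower, with a sum of 221 and 119 CPM in WT and 2.71 to 13.9 in KO, and the erythroid sums of 36517 and 53598 in WT and 43685 to 64490 in KO overlapped.

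MRPL12 had the largest fall at D6, with 1175 and 1585 normalized counts in WT and 272, 239 and 431 in KO (log2 fold change −2.14, SE 0.31, adjusted p = 0.00327 by edgeR). MRPL23 followed with 490 and 691 in WT and 108, 182 and 185 in KO (log2 fold change −1.89, SE 0.33, adjusted p = 0.00398 by edgeR). MRPS26, a small subunit protein with no bacterial counterpart, had 892 and 922 in WT and 266, 194 and 394 in KO (log2 fold change −1.67, SE 0.26, adjusted p = 0.00354 by edgeR). WT and KO libraries were apart in each of these genes. At D0, MRPS26 had 816 and 1183 in WT and 800, 758 and 765 in KO, a log2 fold change of −0.37 with an adjusted p of 0.281.

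**Figure D2:**
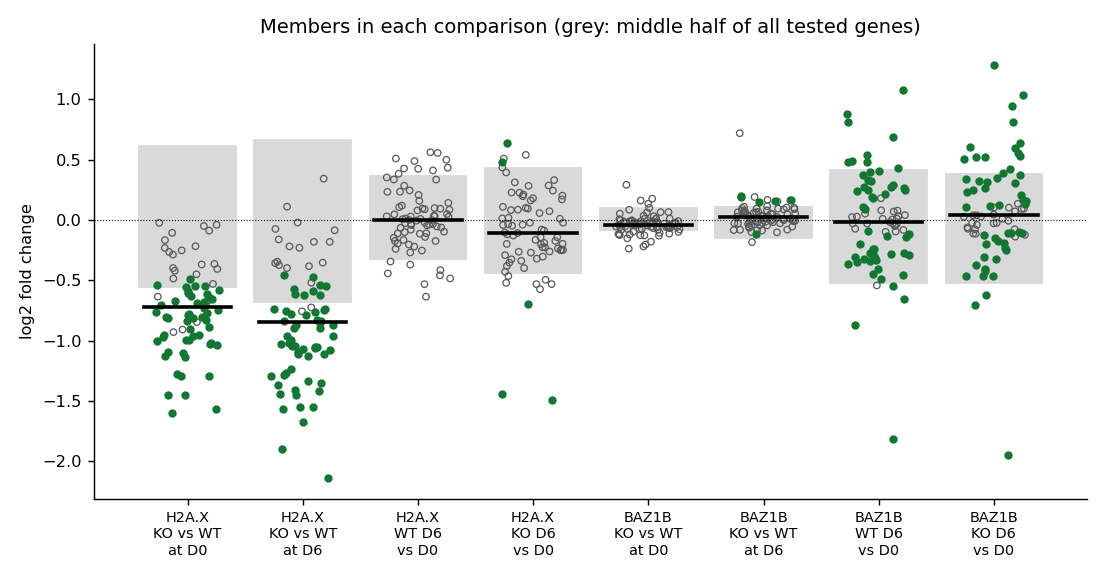
log2 fold changes (y axis) of the tested mitochondrial ribosomal protein genes in 8 comparisons (x axis). Points are members, filled where the adjusted p was below 0.05, black lines are member medians, and grey boxes span the interquartile range of all tested genes. In H2A.X KO against WT the medians lie at −0.72 (D0) and −0.85 (D6), and in BAZ1B KO against WT near 0.

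Members of the same functional region of the ribosome were not all called in the H2A.X experiment. Of all members 67.1% were lower at D0 and 75% at D6, against 16.7% and 20.9% of all genes. Differences between regions and the other members were not tested. Of the stalk, MRPL11 was lower at D0, with 1715 and 2967 normalized counts in WT and 849, 1168 and 1197 in KO (log2 fold change of −1.13 with an SE of 0.30 and an adjusted p of 0.0176), and at D6 the change was −1.11 (adjusted p = 0.0144). Its partner MRPL10 had 792 and 753 in WT and 692, 826 and 736 in KO at D0 (log2 fold change of −0.04 with an adjusted p of 0.847), with overlapping groups, and −0.18 at D6 (adjusted p = 0.324). MRPL10 anchors the MRPL12 copies on the ribosome. Within the stalk, 2 of 3 members were lower at each day. The canonical MRPL12 transcript shares 69.5% of its bases with another gene.

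Of the ring of proteins at the tunnel exit, 4 of 6 were lower at D0 and 5 of 6 at D6. MRPL24 was lower by edgeR at D0 (−0.95 on the log2 scale, adjusted p = 0.011) and at D6 (−1.45, adjusted p = 0.00337), and MRPL17 and MRPL47 were also lower at both days. MRPL22 was lower at D6 with a log2 fold change of −0.76 (adjusted p = 0.0131), and at D0 it had −0.42 (adjusted p = 0.122). MRPL45, which holds the ribosome at the inner membrane, had −0.36 at both days with adjusted p of 0.0911 and 0.0862.

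In the central protuberance, the top of the large subunit, 5 of 7 members were lower at both days. MRPL27 had log2 fold changes of −1.29 and −1.29 (adjusted p = 0.0088 and 0.00555), and MRPL40, MRPL18 and MRPL58, a peptidyl-tRNA hydrolase built into the ribosome, had between −0.54 and −0.99. MRPL48 had 822 and 1250 normalized counts in WT at D0, and 449, 449 and 520 in KO, a log2 difference of −1.13 (SE 0.20, adjusted p = 0.00608 by edgeR), and −1.05 at D6 (adjusted p = 0.00453). MRPL38 and MRPL46 did not pass, with −0.40 and −0.63 at D0 and −0.72 and 0.11 at D6, and both lie largely in exons of other genes.

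Of the small subunit, MRPS12 at the decoding centre was lower with −0.95 at D0 (SE 0.26, adjusted p = 0.0199) and −1.36 at D6 (SE 0.26, adjusted p = 0.00465). The 3 MRPS18 paralogs were lower at both days. MRPS18A had −0.70 and −1.13, MRPS18B −0.64 and −0.87, and MRPS18C −1.02 and −0.89. Values of MRPS18A and MRPS18C are uncertain, with 60.6% and 83.6% of their canonical transcripts in exons of other genes. Of the names that do not stand for small subunit proteins, MRPS30 had −0.26 (adjusted p = 0.232) and −0.45 (adjusted p = 0.0483), and MRPS36 −0.55 (adjusted p = 0.0425) and −0.53 (adjusted p = 0.0415).

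Other lists of genes for mitochondria and ribosomes were counted in the same comparison. Of all genes 16.7% were lower and 18.4% higher at D0, and 20.9% lower and 22.2% higher at D6. Of 5 mitoribosomal proteins with other names, 3 were lower at D0 and 4 at D6, with medians of −1.01 and −1.14. Cytoplasmic ribosomal proteins were lower in 76 of 81 cases at D0 (median −0.96) and 75 of 81 at D6 (median −1.12). Nuclear-encoded respiratory chain subunits were lower in 67 of 77 at each day, with medians of −1.001 and −1.16, and 1 was higher at D6. Assembly and rRNA processing factors were lower in 8 and 11 of 25 (medians −0.45 and −0.47), and translation factors were lower in 3 of 13 at D0, and lower in 4 and higher in 3 of 13 at D6 (medians −0.06 and −0.11). Of 8 regulators of nuclear genes for mitochondria 1 was higher at D0, and 1 was higher and 1 lower at D6. Of 5 mitochondrial transcription factors 0 passed at D0, and 1 was higher and 1 lower at D6. Of the 2 ribosomal RNAs of mitochondria 0 passed at D0 (median 0.31) and both were lower at D6 (median −1.11).

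Short genes had the more negative log2 fold changes in H2A.X KO against WT at both days. Over 12017 annotated genes Spearman's rho was 0.50 at D0 and 0.55 at D6, and over the members 0.37 and 0.43, given as a description since genes are not independent. In the BAZ1B experiment rho over all genes ran from −0.0628 to 0.0528. A relation with length was also seen between H2A.X WT libraries of the same day. For WT replicate 1 against replicate 2, rho over all genes was 0.44 at D0 and 0.34 at D6. With GC content, rho for H2A.X KO against WT was −0.24 at D0 and −0.35 at D6 over all genes. Over the members it was −0.34 and −0.58. Members were short, with a median longest transcript of 1715.5 bases against 3704 over all these genes. After a correction of each library for length and GC content, 22 members were lower at D0 (12.6% of all genes were) with a median of −0.34. At D6, 27 were lower and 1 higher, MRPL3 (14.9% of all genes were lower), with a median of −0.39. With the canonical transcript length, a choice made after seeing the data, 21 members were lower at D0 and 22 at D6, with medians of −0.26 and −0.25. The relation with length over the members turned round after either correction, to coefficients of −0.60 at D0 and −0.64 at D6 with the longest transcript and −0.36 and −0.44 with the canonical one, so that longer members then had the more negative values.

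After the first correction 16 members were lower at both days (7.56% of all genes were), and 8 of them had been before it. After the canonical one 14 were (5.39% of all genes). Without any correction and with each of the 2 corrections, 6 members were lower in H2A.X KO at both days: MRPL12, MRPL48, MRPL50, MRPS18C, MRPS23 and MRPS33. Of these, MRPL12 and MRPS18C are among the 10 genes largely covered by others. MRPL48 had corrected log2 fold changes of −0.72 (adjusted p = 0.0108) and −0.64 (adjusted p = 0.0138), and MRPL12 −0.66 (adjusted p = 0.0388) and −0.85 (adjusted p = 0.0162). MRPL23 was no longer called at either day, with −0.60 (adjusted p = 0.0801) and −0.69 (adjusted p = 0.0509). MRPL54 kept its call at D0 with −0.73 (adjusted p = 0.013) and lost it at D6 with −0.15 (adjusted p = 0.494). MRPS26 had 0.46 at D0 (adjusted p = 0.121) and −0.52 at D6 (adjusted p = 0.0819). The part of transcript length in the fall of the members was not tested beyond these values.

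**Figure D3:**
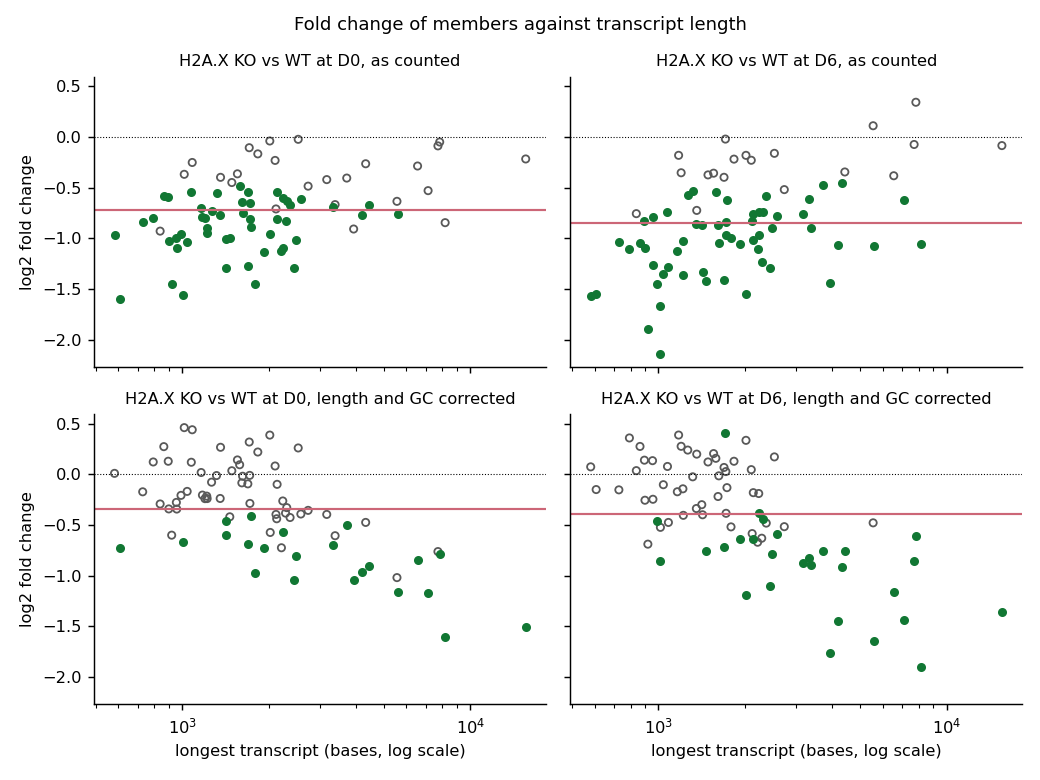
log2 fold change of H2A.X KO against WT (y axis) of each member against the length of its longest transcript in bases (x axis, log scale), at D0 and D6. Upper panels are as counted, lower panels after the correction for length and GC content, and the red line is the member median, which moved from −0.72 to −0.34 at D0 and from −0.85 to −0.39 at D6.

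The counts of calls changed with single libraries, among members and among all genes. Without KO D0 replicate 1, 2 or 3, 19.5%, 22.4% and 20.8% of all genes were called at D0, against 35.1% with all libraries. Leaving out a WT library left 1 on that day, whose spread was then taken to be that of the other groups. Without H2A.X WT D0 replicate 2, 0 members were called at D0 by edgeR (24 had an unadjusted p below 0.05) and the median was −0.41, and 0.551% of all genes were called. Without WT D0 replicate 1 there were 55 and a median of −0.95, and without KO D0 replicates 1, 2 or 3 there were 23, 31 and 29. Without WT D6 replicate 2, 0 were called at D6 (46 had an unadjusted p below 0.05), the median was −0.69, and 1.1% of all genes were called. The 2 WT libraries at D0 differed from each other by a member median of 0.51, replicate 2 above replicate 1, and by 0.73 in cytoplasmic ribosomal proteins. Against the WT mean of the day, each KO library had a negative member median, −0.78, −0.62 and −0.65 at D0 and −0.97, −0.99 and −0.56 at D6, where the last is the library without the Redo mark.

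In BAZ1B KO against WT few members were called, in a comparison that called 3.88% of all genes at D0 and 12.8% at D6. At D0, 0 of 77 members were called by edgeR, against 1.25% of 13879 genes higher and 2.64% lower. By DESeq2 0 were called as well, and 9 had an unadjusted p below 0.05 by edgeR, where 15.4% of all genes did. Log2 fold changes ran from −0.24 for MRPL48 (adjusted p = 0.195) to 0.29 for MRPS24, with a median of −0.04. Without KO D0 replicate 1, 4 were called (9.35% of all genes were), and without KO D0 replicate 2, 1 was (3.78%). This experiment had a biological coefficient of variation of 0.0865, against 0.239 in the H2A.X experiment, so smaller differences could pass.

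At D6, 5 members were higher and 1 was lower in BAZ1B KO, against 6.87% and 5.97% of all genes, which puts the members near the background. MRPS10 had 5727, 5741 and 5556 normalized counts in WT and 6334, 6635 and 6564 in KO (log2 fold change 0.20, SE 0.04, adjusted p = 0.00634 by edgeR). MRPS35 had 2360, 2298 and 2273 in WT and 2679, 2564 and 2670 in KO (log2 fold change 0.19, SE 0.04, adjusted p = 0.0129 by edgeR). MRPS9 had 3171, 3206 and 3154 in WT and 3746, 3425 and 3538 in KO (log2 fold change 0.17, adjusted p = 0.0147 by edgeR). In each of the 3, all KO libraries lay above all WT libraries, by small margins. MRPS27 and MRPL49 were the other 2, with 0.15 and 0.16. Of the 29 MRPS names 24 had a positive log2 fold change and 4 were called higher, whereas of 48 MRPL names 24 were positive and 1 was called higher. That difference between the subunits was not tested.

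MRPL14, a large subunit protein, was the member called lower, with 2973, 2848 and 2800 normalized counts in WT and 2710, 2638 and 2613 in KO (log2 fold change −0.11, SE 0.03, adjusted p = 0.0442 by edgeR). With DESeq2 its adjusted p was 0.0619 and after the length and GC correction 0.149. The call of MRPL14 was lost under 17 alternatives, and its log2 fold change stayed negative in each of them. Under that correction 8 members were called, all higher, where 7.98% of all genes were higher. Without WT D6 replicate 2 or WT D6 replicate 3 there were 3 calls each, and shares of all genes in these fits are not given here.

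The second question was how these genes moved with maturation. In BAZ1B WT, 26 members were higher and 27 lower at D6 than at D0, against 33.5% and 35.4% of all genes, so members were called about as often as other genes. Their median log2 fold change was −0.02, and the interquartile range spanned 0.52 against 0.93 over all genes. In BAZ1B KO, 30 were higher and 22 lower, against 33.2% and 34.5% of all genes, with a median of 0.04. In both genotypes 25 members were called higher and 20 lower, shares of 32.5% and 26% of the 77, against 28.6% and 30.4% of all genes, and 0 were called in opposite directions, against 0.223%. These shares are near the background.

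MRPL48 rose most, from 722, 725 and 704 normalized counts at D0 to 1639, 1434 and 1466 at D6 in BAZ1B WT (log2 fold change 1.08, SE 0.09, adjusted p = 1.52e-07 by edgeR). MRPL1 rose from 726, 795 and 732 to 1364, 1446 and 1322 (log2 fold change 0.87, SE 0.09, adjusted p = 1.06e-06 by edgeR). MRPL54 rose from 1220, 1242 and 1319 to 2327, 2179 and 2133 (log2 fold change 0.81, SE 0.09, adjusted p = 2.93e-06 by edgeR). The days were far apart in all 3 genes, of which MRPL1 forms a mobile arm beside the site where tRNAs leave and MRPL48 is part of the central protuberance. In KO the same 3 genes rose most, by log2 fold changes of 1.29 for MRPL48, 1.04 for MRPL1 and 0.95 for MRPL54.

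MRPL16 fell most, from 10081, 10064 and 10274 normalized counts to 3032, 2914 and 2733 in BAZ1B WT (log2 fold change −1.81, SE 0.13, adjusted p = 4.71e-08 by edgeR). It was the member with the highest level at D0 per length, and it left the first 3 places at D6. In KO it fell from 13421, 8700 and 12288 to 3350, 2753 and 2820 (log2 fold change −1.95, SE 0.13, adjusted p = 2.56e-08 by edgeR), and KO replicate 2 was the lowest at D0. MRPS26 fell from 1969, 1926 and 2010 to 1061, 1102 and 1075 in WT (log2 fold change −0.87, SE 0.07, adjusted p = 1.35e-07 by edgeR). MRPL33, a small protein of the large subunit, fell from 730, 790 and 753 to 502, 470 and 474 (log2 fold change −0.65, SE 0.07, adjusted p = 1.77e-06 by edgeR). In KO the log2 fold changes were −0.62 for MRPS26 and −0.70 for MRPL33.

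By subunit name the calls in BAZ1B WT were as follows, where 33.5% of all genes were higher and 35.4% lower. Of 48 MRPL names 19 were higher and 13 lower, and of 29 MRPS names 7 were higher and 14 lower, a difference that was not tested. Within the tunnel exit ring 2 were higher and 3 lower, and within the central protuberance 3 were higher (MRPL48, MRPL40 and MRPL58) and 0 lower. These regions hold few genes, and their counts were not tested. MRPL2, a core protein of the large subunit, rose from 3144, 3076 and 3148 to 5064, 4912 and 5156 (log2 fold change 0.69, adjusted p = 6.21e-09 by edgeR) and was picked after its values were seen. Of its canonical transcript 54.5% lies in exons of other genes, so its values are uncertain. MRPS12 fell by 0.34 on the log2 scale and MRPS30 by 0.31.

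Cytoplasmic ribosomal proteins were mostly higher at D6 in BAZ1B WT, 74 of 81 with 3 lower, where 33.5% of all genes were higher and 35.4% lower. Respiratory chain subunits were higher in 29 and lower in 20 of 77. Of assembly factors 9 were higher and 9 lower of 26, and of translation factors 2 were higher and 7 lower of 13. Mitochondrial transcription factors were lower in 4 of 5 and higher in 0. All 14 erythroid markers were higher at D6, and 6 of 6 tested markers of mast cells, basophils and eosinophils were lower, and the part of either list in the values of the members was not tested.

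**Figure D4:**
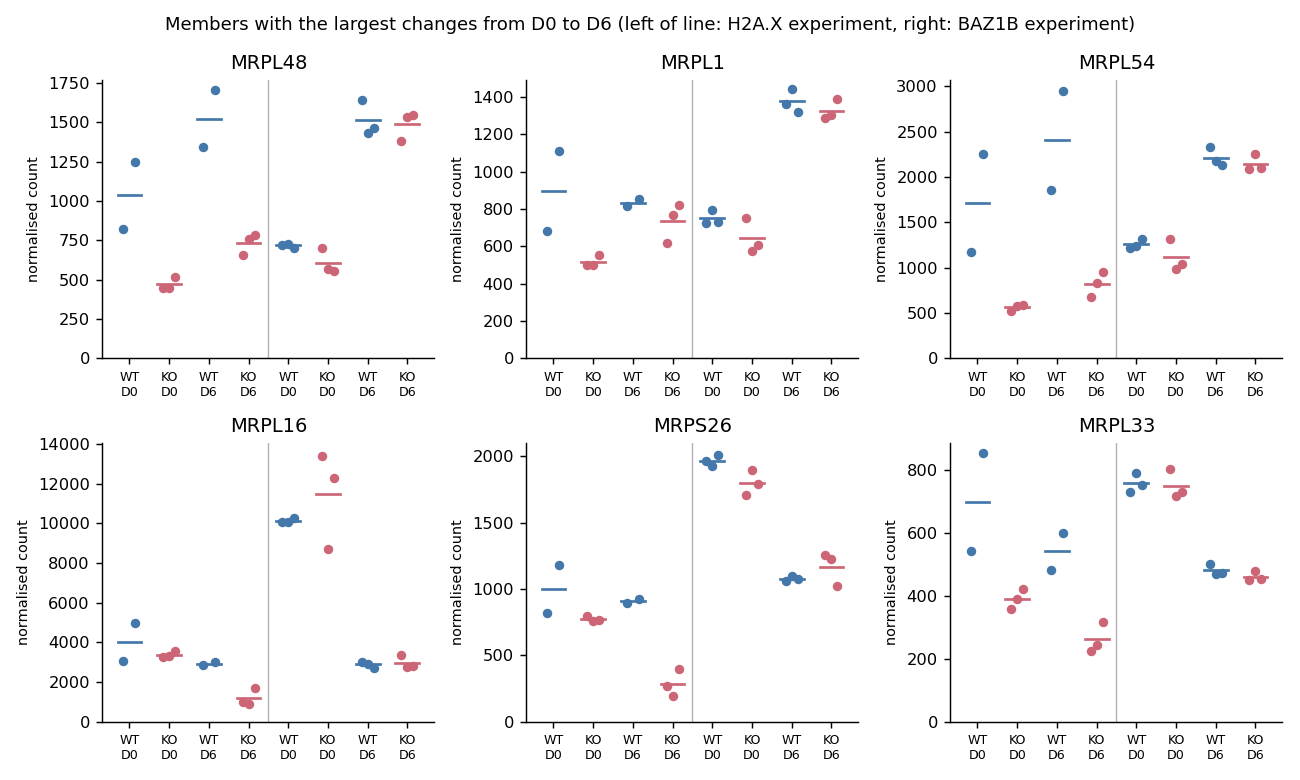
Normalized counts (y axis) of MRPL48, MRPL1, MRPL54, MRPL16, MRPS26 and MRPL33 in each library by genotype and day, with the H2A.X experiment left and the BAZ1B experiment right of the dividing line. Points are libraries (blue WT, red KO) and bars group means. In the BAZ1B experiment the first 3 genes are higher and the last 3 lower at D6 in every library.

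In H2A.X WT, 0 of 76 members were called between the days by edgeR, against 0.839% higher and 1.16% lower of all genes. DESeq2 called 1 (7.72% of all genes), and 5 had an unadjusted p below 0.05 by edgeR, where 21.1% of all genes did. There were 2 libraries per day, and their cytoplasmic ribosomal protein counts differed within each day. MRPL48 went from 822 and 1250 normalized counts at D0 to 1340 and 1707 (log2 fold change 0.56, SE 0.22, adjusted p = 0.189 by edgeR). MRPL16 had 3072 and 4983 at D0 and 2864 and 3003 at D6 (log2 fold change −0.46, adjusted p = 0.423 by edgeR).

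In H2A.X KO, 2 members were higher and 3 lower at D6, against 14.8% and 16.1% of all genes. MRPL16 fell from 3280, 3291 and 3580 normalized counts to 1001, 899 and 1708 (log2 fold change −1.49, SE 0.25, adjusted p = 0.00191 by edgeR). MRPS26 fell from 800, 758 and 765 to 266, 194 and 394 (log2 fold change −1.44, SE 0.24, adjusted p = 0.0018 by edgeR). MRPL41 fell from 309, 360 and 372 to 214, 201 and 227 (log2 fold change −0.70, SE 0.20, adjusted p = 0.0248 by edgeR). The days did not overlap for these genes, and KO D6 replicate 3, the library without the Redo mark, was the highest of its group in each.

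MRPL48 rose from 449, 449 and 520 to 657, 759 and 787 (log2 fold change 0.64, SE 0.18, adjusted p = 0.0234 by edgeR), and MRPL39 from 1189, 1361 and 1385 to 1765, 1733 and 2010 (log2 fold change 0.49, SE 0.14, adjusted p = 0.0244 by edgeR). With the replicate number as a block, which pairs the days within KO, 15 members were called, 6 higher and 9 lower, where 38.5% of all genes were. Without KO D6 replicate 3 there were 18, and without KO D0 replicate 1, 2 or 3 or KO D6 replicate 2 there were 3, 2, 3 and 3. Of all genes 36.9% were called in the first of these fits and 20.2% to 21.5% in the others.

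The member log2 fold changes from D0 to D6 were set side by side between cultures with no library in common, as a description over members. BAZ1B WT and BAZ1B KO correlated with r = 0.966 over 77 members, and BAZ1B WT and H2A.X KO with r = 0.908 over 76, of which 65 had the same sign. BAZ1B WT and H2A.X WT correlated with r = 0.547, with 59 of 76 of the same sign. For this pair, over all 12870 genes tested in both, r was 0.494 and 8926 had the same sign. For the other pairs no value over all genes is given, so their r is not read as particular to the members. Each member keeps its length and base composition in every comparison, and libraries of an experiment can share effects of sequencing. Genes are not independent, and no p is given.

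**Figure D5:**
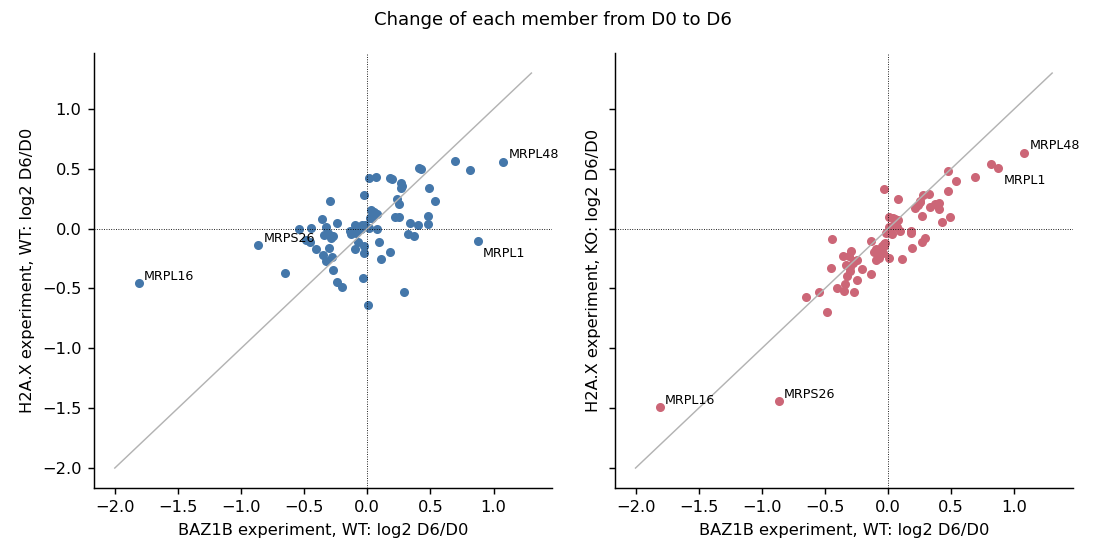
log2 fold change of each member from D0 to D6 in BAZ1B WT (x axis) against H2A.X WT (left, y axis) and H2A.X KO (right, y axis), with equality in grey. Points follow the line more closely in H2A.X KO (r = 0.908) than in H2A.X WT (r = 0.547).

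Whether the effect of a deletion differed between the days was tested as an interaction. In the H2A.X experiment 0 members were called by edgeR, against 1.34% of all genes, and 2 had an unadjusted p below 0.05, where 15.2% of all genes did. DESeq2 called 1 member (4.9% of all genes), and edgeR 2 without KO D6 replicate 3 (6.45%). MRPS26 had a log2 difference of −1.30 between the KO effects at D6 and D0 (SE 0.37, adjusted p = 0.13), and MRPL16 one of −1.04 (SE 0.39, adjusted p = 0.241). In the BAZ1B experiment 0 were called by edgeR, against 2.47% of all genes, while 15 had an unadjusted p below 0.05, where 16.5% of all genes did. DESeq2 called 4, all with a higher KO effect at D6, and edgeR called 1, 2 and 3 without KO D0 replicate 1, KO D6 replicate 2 and KO D6 replicate 3. Shares of all genes in these fits are not given here, so the counts are not read as particular to the members. MRPS27 and MRPS30 were closest by edgeR, with 0.20 (adjusted p = 0.0503) and 0.21 (adjusted p = 0.0558).

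Members with and without the letters CCGGAAG in the promoter were counted apart. In BAZ1B WT from D0 to D6, 9 of 28 with the letters were higher and 10 lower, and of 40 without them 11 were higher and 16 lower. Of all genes 33.5% were higher and 35.4% lower, so both sets were near the background. In H2A.X KO against WT at D0, 21 of 28 with the letters were lower (median −0.77) and 24 of 39 without them (median −0.67), against 16.7% of all genes. These counts were not tested against each other.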

How the data were processed

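The authors deposited raw counts of reads per gene for 22 RNA-Seq libraries, 1 table per experiment, without normalization. The submitters' processing notes name STAR 2.7.0f, Subread 1.6.4 with featureCounts, DESeq2 1.22.1 and hg38. The study's methods name an earlier GENCODE release than the one used here for lengths and exon overlap. The counting options are not given in the sources used here. The labels name an unstranded kit and the study's methods a stranded one, and which applies was not tested. Reads without molecular identifiers are not independent molecules, so depth (11910141 to 41273244 counts) covers counting error only.

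The analysis used edgeR 4.0.16 under R 4.3.3: filterByExpr (minimum count 10, minimum total 15), TMM, and a quasi-likelihood fit on all libraries of an experiment, in which each combination of genotype and day had its own coefficient. Tests were two-sided, and calls had a Benjamini-Hochberg adjusted p below 0.05 over all tested genes. Of 59087 names, 36434 matched the GENCODE annotation and 759 an older name. Exon overlap and promoters were computed in Python 3.11. The procedure was tested on simulated data. The members, gene lists and tests were chosen with earlier results of these data known.

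Named genes are, per comparison, the 3 called members with the largest change in each direction whose groups did not overlap and whose mean normalized count was at least 50, the 3 highest and lowest per length, the proteins of the stalk, tunnel exit, central protuberance and decoding centre, the MRPS18 paralogs, MRPS30, MRPS36, both knockout targets and members that failed the filter.

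Across all genes, deviations of same-numbered D0 and D6 libraries correlated by 0.604, 0.443 and 0.321 in H2A.X KO and by 0.605, 0.650 and 0.164 in BAZ1B KO, so numbers pair the days within KO. The rule asked for r over 0.1 in every same-numbered pair, with 3 or more pairs. KO with WT, and the days within WT, did not meet it. The H2A.X WT days had r of 0.435 in both pairs but only 2 pairs, equal by construction, so pairing there was left undecided. H2A.X WT with KO had 0.0618 and 0.0996 at D0 and 0.181 and 0.216 at D6. The BAZ1B WT days had 0.124, 0.0148 and 0.163. Alternatives were DESeq2 1.42.0, upper-quartile scaling, no filter, no globin genes, the compared day alone, the replicate block, corrections for length and GC content (lowess span 0.4), stricter cutoffs and leaving out each library. The correction with the canonical transcript length was added after seeing the data. Protein sequences were not used here.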

Additional observations from a re-analysis of the deposited data

How the results depend on the processing

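Of 204 counts of called members under the alternatives, 154 stayed within 1.5 times the reported count. With cutoffs of 0.001 on the adjusted p and 1.5 on the size of the log2 fold change, 0 members were called in H2A.X KO against WT at either day, in H2A.X KO between the days and in BAZ1B KO against WT at D6, and 1 in each BAZ1B genotype between the days. How many of all genes passed these cutoffs was not counted, so these counts are not read as particular to the members. In H2A.X KO against WT the length and GC correction gave 22 calls at D0 and 28 at D6 (27 lower and 1 higher), and with the canonical length 21 and 22. These were in part other members, since of the 16 lower at both days after the first correction 8 were lower at both days before it. Leaving out 1 KO library gave 23 to 59 calls at D0 and 46 to 59 at D6. Of all genes 19.5% to 42.8% were called at D0 in these fits and 34.5% to 50.4% at D6. The fits without a WT library are described above. The replicate block, whose numbers did not meet the pairing rule between KO and WT, gave 60 and 61, all lower, where 19.4% and 23.9% of all genes were lower. Upper-quartile scaling moved the median of all genes by −0.106 in H2A.X KO against WT at D6.

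Between the days in H2A.X KO, DESeq2 called 8 members (29.8% of all genes), no filter 10 (17.8%), the replicate block 15 (38.5%), the length and GC correction 15 (37.5%), both together 19 (43.3%) and the canonical correction 17 (38.3%), with 2 to 18 when 1 library was left out (20.2% to 36.9% of all genes). In H2A.X WT, DESeq2 called 1 (7.72% of all genes), the replicate block 1 (8.51%) and the canonical correction 1 (3.11%). The length and GC correction with the block called 4 (7.87%), and leaving out 1 KO library gave 0 to 1. There the median, near 0, changed sign to −0.0202 with DESeq2, −0.0440 with no filter, −0.0309 with the length and GC correction, −0.0145 with that and the block and −0.10 with the canonical correction, and ran from −0.23 to 0.27 when 1 library was left out, with −0.14 without WT D6 replicate 2 and −0.0158 without KO D6 replicate 3. The H2A.X interaction had 1 call with DESeq2 (4.9% of all genes) and with the block (4.17%), and 2 with no filter (3.95%). With 1 KO library left out it had 0 to 2 calls. With any 1 library left out its medians ran from −0.39 to 0.10, with 0.05 without WT D6 replicate 2.

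In BAZ1B KO against WT at D0, no filter, the length and GC correction, that with the block and the canonical correction called 1 member each. Of all genes they called 4.42%, 4.27%, 4.82% and 4.24%. Leaving out 1 library gave 0 to 4 (1.83% to 9.35% of all genes). At D6 leaving out 1 library gave 3 to 7 calls and medians from −0.0015 (without WT D6 replicate 3) to 0.0394. Shares of all genes in these D6 fits are not given here. MRPS35 and MRPS9 lost their call without single libraries. With 1 library left out, the median of BAZ1B WT between the days ran from −0.0229 to 0.0239 (without WT D6 replicate 3). It was −0.0400 and −0.0511 with the 2 corrections, and that of BAZ1B KO to −0.0013 with the length and GC correction and −0.016 with the canonical correction. The BAZ1B interaction had 4 calls with DESeq2, 3 with the length and GC correction, 2 with that and the block, 3 with the canonical correction and 0 to 3 with 1 library left out. For these fits shares of all genes are not given, so the counts are not read as particular to the members. The block changed no other call of a count by over 1.5 times. The causes were not tested. Of 528 values of named members under alternatives, 484 kept their direction and their call and 44 kept only the direction.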
